A study of Saccharomyces cerevisiae with 112 samples.

Results

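The genes described here encode proteins of the large (60S) subunit of the cytosolic ribosome of budding yeast. They were chosen by name, from RPL1A (YPL220W) to RPL34B (YIL052C), as 60 systematic names, by a rule that uses no measured value. Of these 60 names, 58 have a row in the table of 6319 genes, and RPL9A and RPL16A are not analysed here. Of the 58 genes, 15 were listed at 0 in every library, so 43 genes carry the results below. Both copies were measured for 12 pairs of paralogues.

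Poly(A) RNA was sequenced from 8 strains at 7 times: growing cells (midlog), cells arrested by 72 h of culture at saturation (starvation), and cells 5, 30 and 90 min and 1 and 2 doublings after release into fresh medium, with 2 libraries for each strain and time. The oeSir3 strain (THC70) is W303 with sir3 replaced by HIS3 and an HA-tagged Sir3 under a galactose promoter at ura3, which its label names GAL1 in one place and GAL10P in another; it also carries hmlΔ::kanMX, hmr::rHMRa, matΔ::TRP1, bar1Δ::hisG and lys2Δ, with ade2, can1, his3, leu2 and trp1 alleles. It was grown, starved and released in galactose medium (YPGal), and the other 7 strains were kept in YPD. The sir2D and sir4D strains come from a deletion library with the named gene replaced by KanR, and sir3D (MRL5.1) is S288C with sir3 replaced by KANR. These 3 share ura3, leu2, his3 and met15 deletions. Sir3_3xT7 and Sir3_3xHA were made from wt1 by fusing a loxP tag cassette to the end of Sir3, and their labels call both hypomorphs; Sir3_3xT7 was taken after the tags had been switched with estradiol and Sir3_3xHA before. The wild types are S288C. wt1 (NKI12318) has his3, leu2, lys2, met15, trp1 and ura3 alleles, bar1::HisG, HIS3 and Pgpd_CRE_EBD78, a Cre gene under a constitutive promoter. wt2 (JOY1, from BY4741) has ura3, leu2, his3 and met15 deletions and bar1D:HIS5. All strains are labelled MATa, and each genotype is 1 strain. Nothing in the labels says that the libraries of a group are from different cultures. The p-values therefore reflect the spread between libraries, which may be technical.

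The large subunit holds the peptidyl transferase centre and the tunnel through which the new protein leaves, and yeast makes most of its proteins from duplicated genes. Ribosomal protein genes are among the most transcribed genes of growing yeast. They are controlled together by Rap1, Fhl1, Ifh1 and Sfp1 downstream of the nutrient-sensing TOR and protein kinase A pathways, and are shut down when nutrients run out.

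How well paralogues can be told apart depends on their sequence, which is why 2 pairs are shown here. The stretches are 30 coding bases of each gene, on its coding strand, from the RefSeq R64 genome; they are the first stretch in each pair with the most differing positions, and capitals mark the positions where the copies differ. RPL1A and RPL1B, which encode the protein of the L1 stalk beside the tRNA exit site, differ at 4 of 654 coding positions, and 81.0% of the 50-base stretches of RPL1A also occur in RPL1B. RPL15A and RPL15B, which encode an early-joining core protein, differ at 42 of 615 positions and share 11.8% of those stretches. The RPL1 stretches cover coding bases 1 to 30 (chrXVI:135790-135819, plus strand, and chrVII:254641-254670, plus strand), and the RPL15 stretches cover coding bases 439 to 468 (chrXII:202123-202152, minus strand, and chrXIII:509881-509910, minus strand).
RPL1A: atgtcCaagatcacTtcttctcaagtcaga
RPL1B: atgtcTaagatcacCtcttctcaagtcaga
RPL15A: cgTtacaactggatctgTGaCccAgtTcaC
RPL15B: cgGtacaactggatctgCAaTccCgtCcaT

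Of the other measured pairs, RPL4 (72.7% of 50-base stretches shared), RPL11 (60.9%) and RPL14 (42.1%) are also close. Their copies, like those of RPL1, are uncertain wherever reads could have been assigned to either copy. The other 8 measured pairs share 11.8% or less. RPL7B and RPL2B share 56.9% and 28.4% with copies that were listed at 0.

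The genes listed at 0 in every library were RPL2A, RPL6A, RPL7A, RPL13B, RPL16B, RPL18B, RPL19A, RPL20A, RPL20B, RPL22B, RPL23A, RPL31B, RPL33B, RPL34A and RPL34B. All 15 lie on the minus strand and have a coding sequence split by an intron in R64. None of the 22 plus-strand genes of the set with an intron, and none of the 20 without, was listed at 0 throughout. Over all matched genes, 88 of 132 minus-strand genes with an intron, 0 of 134 plus-strand genes with an intron and 42 of 5427 genes with a single coding segment were listed at 0 in every library. These zeros are therefore given as listed, with no level or fold for the genes. RPL22B is one of them, so RPL22A and RPL22B, whose coding sequences are 78.9% identical, could not be compared within the pair.

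Depth is expressed as the reads over the median gene, recovered from the steps between low values, and ranged between 4 and 119.5 (median 52.5); 6 libraries lay under 10 reads, among them wt2 replicate 1 at midlog and at 2 doublings and oeSir3 replicate 2 at starvation. SIR2, SIR3 and SIR4 were each listed at 0 in all 14 libraries of the strain that lacks the gene, and in none of the 28 wild-type libraries. SIR3 had a median of 11.2 units in oeSir3 (0.0948 to 38.1) against 0.183 in the wild types (0.0219 to 0.586). These ranges overlapped, so SIR3 was not above the wild-type range in every oeSir3 library. Its level by time is not given here. In 6 series (replicate 1 of wt1, wt2, sir2D, sir3D, Sir3_3xT7 and Sir3_3xHA) each library has its own stand-in value for zero coverage, and in the other 10 series the libraries share one. Whether this follows the 2 library kits named in the protocols is not given in the sources used here. Only 71 of 4816 values of the 43 genes rested on fewer than 10 reads, 44 of them in the 2 starved oeSir3 libraries.

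In growing wild types the median gene of the set lay far above the median gene of the table. Levels are median read coverage over the coding sequence on the spike-in scale, which does not grow with gene length. The median of the 43 genes lay 4.65 to 7.78 log2 units above the median of all 5567 genes tested in the 4 wild-type midlog libraries, and the 43 genes together made up 9.16% to 17.4% of all summed coverage. Both upper ends came from wt2 replicate 1, which had 8 reads over the median gene. The next highest values were 5.38 (wt1 replicate 1) and 11.1% (wt2 replicate 2). The highest mean levels were those of RPL23B (YER117W, at the subunit interface; 144 to 687 units), RPL28 (YGL103W, the target of cycloheximide resistance mutations; 171 to 459), RPL25 (YOL127W, at the tunnel exit, where the signal recognition particle docks; 121 to 812), RPL10 (YLR075W, beside the tRNA sites; 184 to 327) and RPL27A (YHR010W; 98.1 to 578). The lowest were RPL7B (YPL198W; 1.00 to 1.57 units), RPL15B (YMR121C; 2.09 to 2.98), RPL1A (YPL220W; 1.09 to 11.7) and RPL8A (YHL033C; 5.28 to 10.2). The ranges of the 5 highest genes overlapped one another, while RPL7B lay below RPL15B in all 4 libraries.

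**Figure D1:**
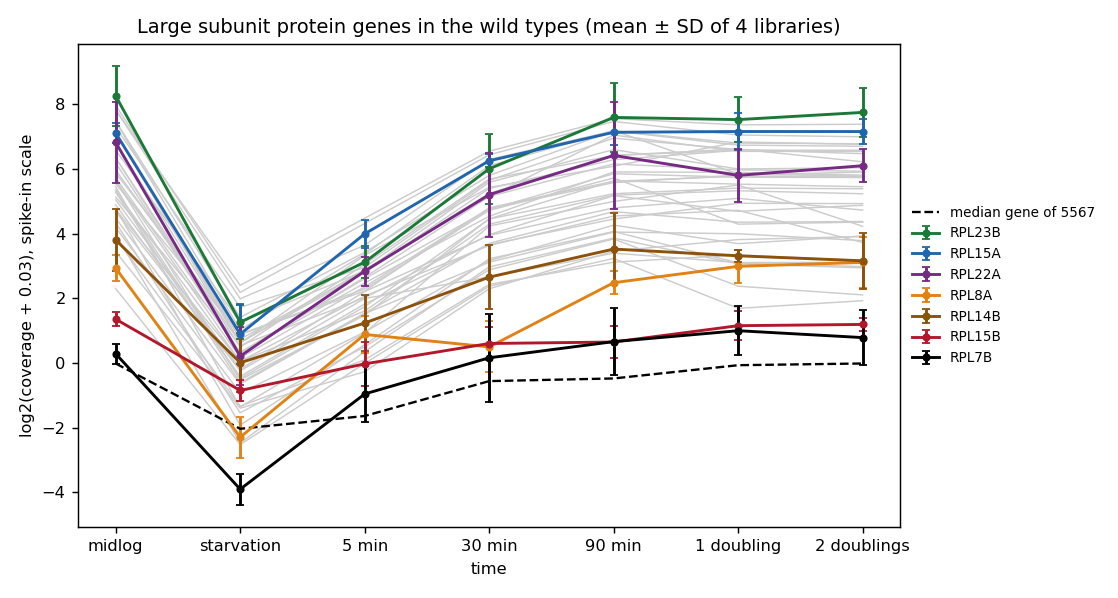
Mean level of each of the 43 genes in the 4 wild-type libraries of each time, as log2(coverage + 0.03) on the spike-in scale (y axis) against time in order (x axis); grey lines are the other genes, coloured lines with SD bars the named ones, and the dashed line is the mean over the 4 libraries of the median of 5567 genes. RPL15B has the smallest drop into starvation, and RPL8A is the one named gene whose mean at 30 min is not above its mean at 5 min.

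All 43 measured genes of the set fell in starvation. In the wild types, RPL3, whose protein reaches into the transferase centre, had 2.29 and 0.814 in wt1 and 1.62 and 1.67 in wt2 in starvation, against 91.2 and 131 in wt1 and 73.4 and 188 in wt2 at midlog, a change of -6.21 ± 0.56, adjusted p = 5.97e-15 (log2 fold change ± SE throughout; limma with Benjamini-Hochberg adjustment over 5567 genes). Every starved library lay below every growing one, with a wide gap. RPL10 had 10.9 and 2.37 in wt1 and 6.22 and 4.69 in wt2 in starvation, against 199 and 184 in wt1 and 218 and 326 in wt2 at midlog (-5.42 ± 0.60, adjusted p = 6.86e-12). RPL22A, a copy of a gene pair that yeast can do without, had 2.13 and 0.755 in wt1 and 1.72 and 0.573 in wt2 in starvation, against 53 and 74.8 in wt1 and 393 and 103 in wt2 at midlog (-6.61 ± 0.61, adjusted p = 8.67e-15), again with no overlap. All 43 genes passed the call of adjusted p under 0.05 and at least 1 log2 unit downward, against 71.9% of all genes tested, and their median change was -5.48, against -1.96 for all genes. RNA was mixed with S. pombe RNA by mass, so these changes are per mass of total RNA. They do not give the change per cell, since neither the number of cells nor the RNA per cell enters this scale.

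Set against the median gene of each library, 41 of the 43 genes still fell, with 22.6% of all genes falling on that scale, and the median was -3.53; RPL33A (-2.69 ± 1.26) and RPL15B did not pass. The steepest falls on the spike-in scale were RPL23B (-7.00 ± 0.58), RPL4A (whose protein lines the exit tunnel; -6.81 ± 0.74) and RPL11A (which enters the ribosome with RPL5 and 5S rRNA; -6.69 ± 0.88). The shallowest were RPL7B (-4.19 ± 0.64), RPL14B (-3.80 ± 0.53) and RPL15B (-2.20 ± 0.40). RPL15B had 0.541 and 0.443 in wt1 and 0.72 and 0.44 in wt2 in starvation, against 2.56 and 2.56 in wt1 and 2.09 and 2.98 in wt2 at midlog. The groups did not overlap, but relative to the median gene its change was -0.24 ± 0.39 (adjusted p = 0.615). Among the other genes without a paralogue, RPL29 changed by -6.49 ± 0.63, RPL30 (which represses splicing of its own transcript) by -6.43 ± 0.95, RPL5 by -5.85 ± 0.47, RPL25 by -5.84 ± 0.57, RPL28 by -5.77 ± 0.63 and RPL32 by -4.69 ± 0.68. All 43 changes had the same sign within the wild-type libraries of either kind of zero value, with medians of -5.16 (own value) and -6.09 (shared value).

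**Figure D2:**
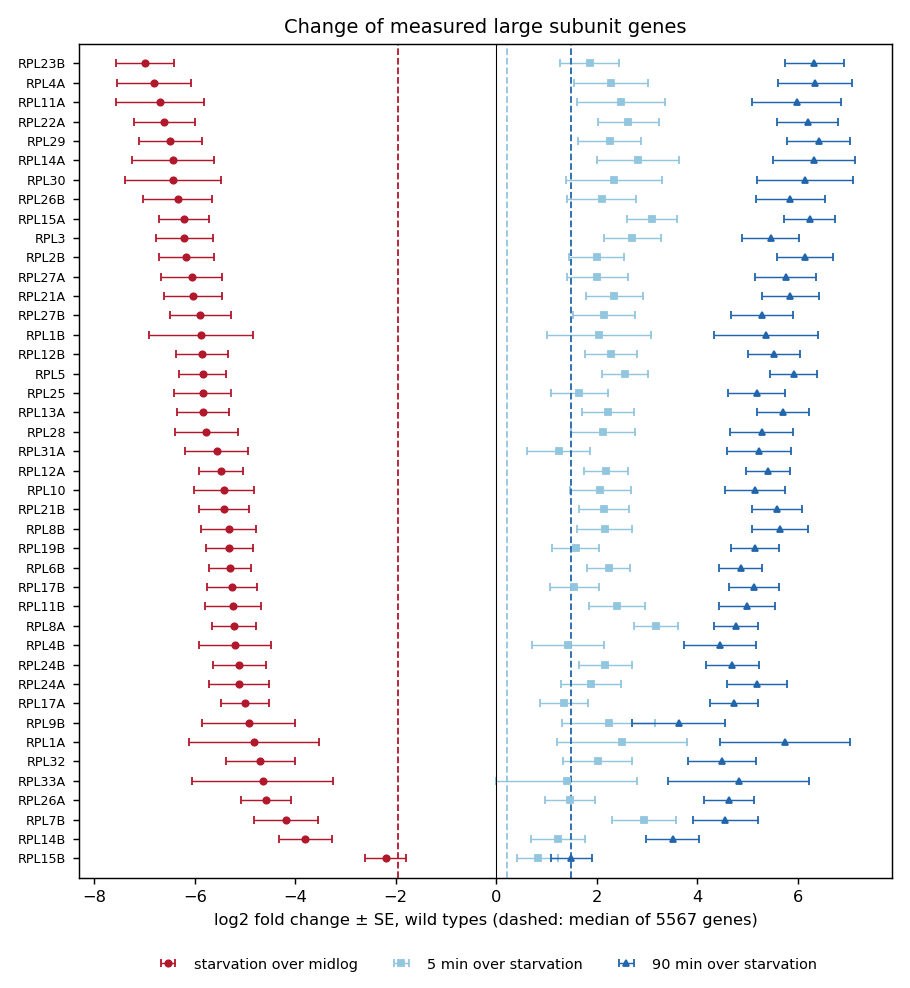
Log2 fold change ± SE of 42 of the 43 measured genes (rows) in the wild types for starvation over midlog (red), 5 min over starvation (light blue) and 90 min over starvation (blue); dashed lines mark the median of the 5567 genes tested in each comparison. RPL15B is the red point nearest to the all-gene median of -1.96, and all 42 plotted genes lie left of it.

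The genes rose again within minutes of release. At 5 min 31 of the 43 were higher than in starvation, against 10.3% of all genes tested, with a median of 2.15 for the set and 0.22 for all genes. RPL15A had 13.1 and 11.7 in wt1 and 18.8 and 22 in wt2 at 5 min, against 4.49 and 1.11 in wt1 and 1.93 and 1.15 in wt2 in starvation (3.10 ± 0.50, adjusted p = 3.32e-06). The groups did not overlap. RPL8A, a gene of early 60S assembly, rose most (3.18 ± 0.44, adjusted p = 9.91e-08), with 1.69 and 1.04 in wt1 and 2.47 and 2.48 in wt2 at 5 min, against 0.364 and 0.122 in wt1 and 0.142 and 0.138 in wt2 in starvation, and RPL7B rose by 2.94 ± 0.64. RPL22A rose by 2.63 ± 0.61 (adjusted p = 0.00124). The smallest estimates included RPL15B (0.82 ± 0.40) and RPL14B (1.23 ± 0.53), neither of which passed. Among the others that did not pass were RPL1A, RPL1B, RPL4B, RPL9B, RPL11A, RPL17A, RPL30, RPL31A and RPL33A. This early count rests on replicate 2 of the wild types: it was 8 without wt1 replicate 2 and 11 without wt2 replicate 2. The median was 1.38 in the wild-type libraries with their own zero value and 2.90 in those with the shared one, and all 43 estimates were above 0 in both.

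By 30 min all 43 genes had risen over starvation (52.8% of all genes; median 4.31, against 1.38 for all genes), and so they had at 90 min (57.1%; median 5.29), after 1 doubling (68.2%; 5.26) and after 2 doublings (69.4%; 4.98). These comparisons share the starved libraries. Relative to the median gene, 40 genes rose at 30 min (23.2% of all genes), 42 at 90 min, 38 after the first doubling and 37 after the second (22.7% of all genes each). The rise of RPL15B did not pass on that scale at any of the 4 times. At 30 min the largest rises were RPL4A (5.59 ± 0.74), RPL14A (5.44 ± 0.82) and RPL15A (5.36 ± 0.50), and the smallest were RPL8A (2.79 ± 0.44), RPL14B (2.65 ± 0.53) and RPL15B (1.45 ± 0.40). At 90 min the largest were RPL29 (6.42 ± 0.63), RPL4A (6.35 ± 0.74) and RPL23B (6.33 ± 0.58), and at 1 doubling RPL4A (6.86 ± 0.74), RPL23B (6.26 ± 0.58) and RPL15A (6.26 ± 0.50). At 2 doublings RPL23B (6.49 ± 0.58), RPL15A (6.26 ± 0.50) and RPL3 (6.14 ± 0.56) led. RPL15B, RPL14B and RPL9B were lowest at 90 min (1.50 ± 0.40, 3.51 ± 0.53 and 3.64 ± 0.93), after the first doubling (2.0 ± 0.40, 3.31 ± 0.53 and 3.35 ± 0.93) and after the second (2.04 ± 0.40, 3.15 ± 0.53 and 3.35 ± 0.93). The rise of RPL22A was 4.99 ± 0.61 at 30 min and 6.21 ± 0.61 at 90 min. It was 5.59 ± 0.61 after the first doubling and 5.89 ± 0.61 after the second.

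After 2 doublings no gene of the set was called different from midlog, with 0.0359% of all genes called (limma; 2 genes had an unadjusted p under 0.05), and the median difference was -0.44, against a value close to 0 for all genes. Estimates ran from RPL1B (-2.23 ± 1.03), RPL11A (-1.80 ± 0.88) and RPL30 (-1.68 ± 0.95) to RPL7B (0.50 ± 0.64) and RPL8B (0.61 ± 0.55), and RPL22A stood at -0.72 ± 0.61. SEs of this size leave room for differences of a log2 unit or more in single genes. In the wild-type libraries with their own zero value the set's median was -0.86, against 0.43 for all genes. In those with the shared value it was -0.13, against -0.47 for all genes. Relative to the median gene no gene of the set was called, and 7 had an unadjusted p under 0.05 (limma).

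Every functional group of the set was lower in starvation. In starvation all 5 measured genes of the transferase centre and tRNA contacts fell (median -6.17), as did all 3 of the 5S particle (RPL5, RPL11A and RPL11B; -5.85), all 7 at the tunnel exit (-5.31), both of the stalk base (RPL12A and RPL12B; -5.67) and the 4 measured genes that growth does not require (RPL22A, RPL24A, RPL24B and RPL29; -5.80). At 5 min the counts that rose were 4 of 5, 2 of 3, 5 of 7, 2 of 2 and 4 of 4 in the same order of groups, and at 30 min every gene of these groups had risen. Over all genes 71.9% fell in starvation, 10.3% rose at 5 min and 52.8% rose at 30 min. The starvation change had a median of -5.77 in the 23 genes with an intron and -5.37 in the 20 with a single coding segment. Among 19 measured large subunit genes outside the set (RPL35 to RPL43 and the stalk proteins), 17 fell in starvation (median -5.37; from RPL38 at -6.00 to RPL37B at -1.42) and 17 rose at 30 min (median 3.94). All 6 dedicated chaperones of ribosomal proteins fell in starvation (median -3.84; SQT1, the chaperone of Rpl10, at -4.30) and all 6 rose at 30 min. Of 13 listed regulators of ribosome gene expression, 10 fell and 1 rose in starvation, against 71.9% of all genes that fell and 4.38% that rose. Their median of -1.71 lay near the -1.96 of all genes. They ran from TOD6 (-3.04) to CRF1, a corepressor of ribosomal protein genes (1.36).

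Promoters were scanned because all 43 measured genes were called lower in starvation and higher again at 30 min. In the 500 bases before the coding start in R64, the Rap1 core ACCCNNACA occurred on either strand in 26 of 60 windows (43.3%), against 328 of 6025 windows of all genes (5.44%). The Fhl1-related GACGC occurred in 27 (45.0%), against 30.3% of all windows, and the stress element CCCCT in 17 (28.3%), against 34% of all windows; no pattern contains another. In the 250 bases before to 50 after the coding start the Rap1 core occurred in 8.33% of the set's windows, against 2.82% of all windows. Of the 43 measured genes, 16 (37.2%) had the Rap1 core in the 500 bases before the coding start. Among the measured genes the starvation change had a median of -5.41 in the 27 without the Rap1 core, -5.81 in the 14 with 1 match and -6.00 in the 2 with more. Of the pairs whose ratio is described next, RPL26A and RPL26B both have a match, RPL14A and RPL8A have one where their partners have none, and neither RPL15 copy has one. RPL22B has a match and RPL22A none. The matched stretches, with the core in capitals, lie 270 (RPL26A), 284 (RPL26B), 410 (RPL14A) and 239 (RPL8A) bases before the coding start, at chrXII:819032-819060, chrVII:555518-555546, chrXI:431486-431514 (all 3 genes on the plus strand) and chrVIII:36246-36274 (minus strand); both RPL26 matches are on the opposite strand.
RPL26A: tttcatgtaaTGTATGGGTtaactaatcc
RPL26B: gcattaaaggTGTTTGGGTttaataggag
RPL14A: gcgcaaatacACCCATACActatttttac
RPL8A: tgaagaaaacACCCAAACAtatctaggcc

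The ratio between the copies changed in starvation in 3 of the 12 measured pairs, the same share as over all pairs. The log2 ratio of copy A over copy B is taken within a library, so the spike-in scale and the depth of the library cancel, apart from the pseudocount. A pair passed at an adjusted p under 0.05 over 40 A and B pairs of the genome, of which 25% passed. The RPL15 ratio fell (-4.01 ± 0.41, adjusted p = 2.05e-12): RPL15A made up a median of 72.6% (71.4% to 89.3%) of the pair's coverage in starved wild types, against 98.2% (97.6% to 98.6%) at midlog. RPL15A itself had 4.49 and 1.11 in wt1 and 1.93 and 1.15 in wt2 in starvation, against 134 and 104 in wt1 and 149 and 172 in wt2 at midlog, the steeper fall of the pair; yeast growth is known to require RPL15A and not RPL15B. The 4 starved shares lay below all 4 growing ones. In the 12 series of the other strains, which enter this test only through the pooled spread, the RPL15 ratio changed by -6.52 to -2.83 and was below 0 in 12 of 12.

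The RPL14 ratio also fell (-2.64 ± 0.58, adjusted p = 0.0002). RPL14A had 0.059 and 0.0709 in wt1 and 0.564 and 0.17 in wt2 in starvation, against 7.54 and 4.23 in wt1 and 81 and 22.7 in wt2 at midlog, while RPL14B had 0.605 and 0.723 in wt1 and 2.51 and 0.81 in wt2, against 7.15 and 8.9 in wt1 and 30.0 and 19.8 in wt2. Starved RPL14A lay near the pseudocount of 0.03 in wt1, which understates its fall. RPL14A supplied 13.1% (8.89% to 18.3%) of the pair in starvation, against 52.4% (32.2% to 73%) at midlog, and the change was downward in 12 of 12 other series (-4.79 to -1.10). These copies share 42.1% of their 50-base stretches, so the split between them is uncertain. The RPL26 ratio, of a tunnel exit protein, rose (1.76 ± 0.40, adjusted p = 0.000291), with RPL26A at 49.3% (29.6% to 59.6%) of the pair in starvation, against 22.5% (10.3% to 31.9%) at midlog. Its change was upward in 12 of 12 other series (0.46 to 2.17), though the wild-type shares overlapped. The remaining 9 pairs did not pass, with estimates from -1.61 ± 0.77 (RPL4) to 1.05 ± 0.62 (RPL1), 2 of the near-identical pairs. With a pseudocount of 0.3 the count was 5.

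**Figure D3:**
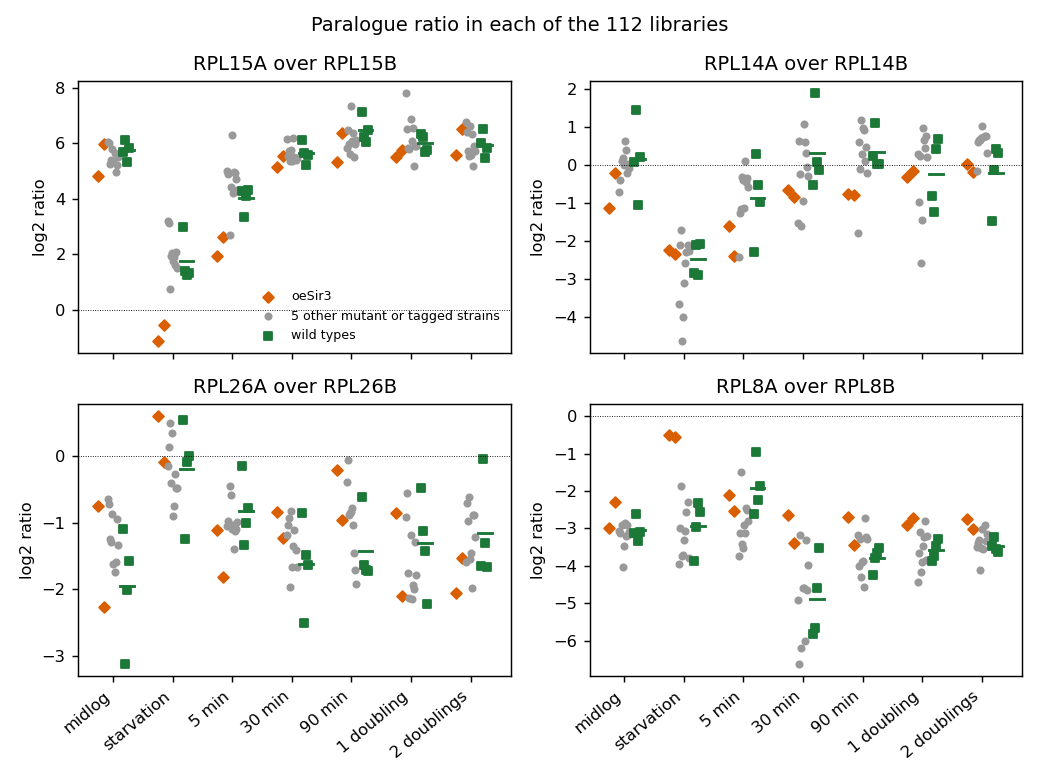
Log2 ratio of copy A over copy B (y axis) in every library by time (x axis) for 4 pairs; orange diamonds are oeSir3, grey points the 5 other mutant or tagged strains, green squares the wild types with a bar at their mean. The RPL15 and RPL14 ratios dip and the RPL26 ratio peaks in starvation, and the mean RPL8 ratio of the wild types is lowest at 30 min.

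At 30 min after release 4 pairs had a ratio different from starvation (20% of the 40 pairs). RPL15 (3.90 ± 0.41, adjusted p = 5.38e-12), RPL14 (2.79 ± 0.58, adjusted p = 9.42e-05) and RPL26 (-1.42 ± 0.40, adjusted p = 0.00514) moved back, a comparison that shares the starved libraries with the one above. The RPL8 ratio fell (-1.97 ± 0.36, adjusted p = 1.56e-05), although the starvation to midlog estimate was near 0 (0.11 ± 0.36, adjusted p = 0.835). RPL8A had 1.03 and 1.55 in wt1 and 0.788 and 2.84 in wt2 at 30 min, against 1.69 and 1.04 in wt1 and 2.47 and 2.48 in wt2 at 5 min. RPL8B had 60 and 38 in wt1 and 41.2 and 33 in wt2 at 30 min, against 10.4 and 5 in wt1 and 4.81 and 9.06 in wt2 at 5 min. RPL8A thus overlapped between these times while every RPL8B library was higher at 30 min. RPL8A supplied 2.9% (1.7% to 7.92%) of the pair at 30 min, against 11.1% (6.03% to 14.3%) in starvation, and these ranges overlapped. Its share was 19.3% (13.9% to 34%) at 5 min and 6.99% (5.02% to 8.02%) at 90 min. The ratio at 30 min was not tested against that at 5 min. In the other strains the RPL8 ratio was lower at 30 min than in starvation in 12 of 12 series (-3.63 to -0.18), and lower than at 5 min in 12 of 12. After 2 doublings no measured pair was called different from midlog (2.5% of the 40 pairs called; limma; 1 pair of the set had an unadjusted p under 0.05), with RPL1 nearest (1.86 ± 0.62, adjusted p = 0.0581); without wt2 replicate 2 the count was 3.

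No gene of the set was called different from the wild types in any of the 5 strains with a SIR gene deleted or Sir3 tagged. Each strain was tested on the mean of its 7 times, relative to the median gene, with 2 series against 4. The sir2D estimates had a median of -0.22 and ran from RPL24A (-0.79 ± 0.46), RPL24B (-0.69 ± 0.44) and RPL8A (-0.68 ± 0.56) to RPL11A (0.36 ± 0.59), RPL33A (0.63 ± 1.19) and RPL1B (0.79 ± 0.75). For sir3D the median was 0.01, with RPL33A (-0.81 ± 1.19), RPL1A (-0.66 ± 0.92) and RPL30 (-0.65 ± 0.74) lowest and RPL8B (0.27 ± 0.71), RPL2B (0.56 ± 0.39) and RPL27B (0.62 ± 0.26) highest. For sir4D it was -0.33, with RPL8B (-0.93 ± 0.71) and RPL29 (-0.91 ± 0.71) among the lowest and RPL9B (0.56 ± 0.63), RPL1A (0.70 ± 0.92) and RPL33A (0.75 ± 1.19) highest. For Sir3_3xT7 it was -0.28, between RPL33A (-0.86 ± 1.19), RPL4B (-0.82 ± 0.50), RPL1B (-0.74 ± 0.75) and RPL27B (0.17 ± 0.26), RPL32 (0.18 ± 0.69), RPL12A (0.19 ± 0.40). For Sir3_3xHA it was -0.12, between RPL29 (-0.83 ± 0.71), RPL11A (-0.77 ± 0.59), RPL30 (-0.74 ± 0.74) and RPL32 (0.37 ± 0.69), RPL8B (0.42 ± 0.71), RPL24A (0.43 ± 0.46). RPL22A stood at -0.28 ± 0.45 in sir2D, -0.31 ± 0.45 in sir3D, -0.64 ± 0.45 in sir4D, -0.52 ± 0.45 in Sir3_3xT7 and -0.31 ± 0.45 in Sir3_3xHA.

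All adjusted p-values in these 5 comparisons were 0.919 or more (limma; RPL27B in sir3D and none in the other 4 had an unadjusted p under 0.05), while 0.647% of all genes were called in sir2D, 0.701% in sir3D, 0.736% in sir4D, 0.234% in Sir3_3xT7 and 0.0898% in Sir3_3xHA. No gene of the set was called at a single time either, over 301 tests of a gene at a time in each strain (limma; unadjusted p under 0.05 in 3 for sir2D, 8 for sir3D, 8 for sir4D, 6 for Sir3_3xT7 and 2 for Sir3_3xHA), while over all genes and times 0.606%, 0.793%, 0.834%, 0.259% and 0.139% were called in the same order of strains. With the replicate number as a block, 4 of these tests were called in sir3D, 10 in sir4D and 0 in the other 3 strains. None of the 12 pair ratios was called in these strains, with 0% of the 40 pairs and none of the 12 at an unadjusted p under 0.05 (limma). Without wt2 replicate 2 the calls over all genes of the set and all times were 11 in sir2D, 9 in sir3D, 28 in sir4D, 14 in Sir3_3xT7 and 9 in Sir3_3xHA, and 1 gene, RPL22A, was called in sir4D over the mean of the times (-1.18, adjusted p = 0.036, against -0.64 and 0.919 with all libraries; limma). RPL22A is named here after its value was seen. Both sir4D series have the shared zero value; its median difference was 0.16 against the wild-type series with that value and -0.84 against those with their own. Within these strains, in starvation 42 (sir2D), 40 (sir3D), 43 (sir4D), 37 (Sir3_3xT7) and 38 (Sir3_3xHA) of 43 fell, with 41.7%, 21.8%, 70.4%, 20.5% and 20.2% of all genes falling in the same order. At 5 min 4 (sir2D), 30 (sir3D), 26 (sir4D), 0 (Sir3_3xT7) and 9 (Sir3_3xHA) had risen over starvation (2.44%, 9.2%, 7.2%, 0.216% and 5.26% of all genes), and the medians were 1.69, 2.92, 2.71, 0.43 and 2.15. In Sir3_3xT7 2 genes had an unadjusted p under 0.05 at 5 min (limma). Replicate 1 of sir3D and of Sir3_3xT7 at 5 min had 4 reads over the median gene, the lowest depth of the series; without the libraries under 10 reads the counts were 11 in sir3D and 0 in Sir3_3xT7 (an alternative chosen after seeing the data, in which the 1 library left is assumed to vary like the other groups). These counts are on the spike-in scale and were not tested against one another. Relative to the median gene, the change from starvation to 5 min was tested against that of the wild types. No gene of the set was called in any of the 5 strains, and none had an unadjusted p under 0.05 (limma). In Sir3_3xT7 the set's median lay 2.19 log2 units above that of all genes in starvation and 3.17 at 5 min (medians of 2 libraries). At 30 min 41, 41, 42, 38 and 41 had risen over starvation (46.1%, 41.3%, 33.1%, 31.6% and 42.1% of all genes).

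In oeSir3 part of the set was lower than in the wild types, with the most genes called in starvation and at 5 min. Over the mean of the 7 times 16 of 43 were lower and none higher (4.33% of all genes lower), with a median of -1.28, against -0.02 for all genes. RPL27A (-2.01 ± 0.52, adjusted p = 0.0265), RPL28 (-1.90 ± 0.34, adjusted p = 0.00391) and RPL22A (-1.69 ± 0.45, adjusted p = 0.0281) were among those called; RPL29 had the lowest estimate but did not pass (-2.26 ± 0.71, adjusted p = 0.054). The highest estimates were RPL1A (-0.42 ± 0.92), RPL4B (-0.16 ± 0.50) and RPL9B (0.09 ± 0.63). The number called depends on single series: it was 0 without oeSir3 replicate 1, 6 without oeSir3 replicate 2, 3 without wt1 replicate 1, 5 without wt2 replicate 1 and 31 without wt2 replicate 2. It was 18 with a term for the kind of zero value (4.62% of all genes; median -1.06), and the median was -0.81 against the wild-type series that share the zero value of oeSir3 and -1.70 against those with their own, with 41 and 42 of 43 estimates below 0. The strain also differs from the wild types in background (W303) and in its galactose medium, so these cannot be told apart from the level of Sir3.

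By time, 4 genes were lower in oeSir3 at midlog (5.66% of all genes), 28 in starvation (11.8%), 31 at 5 min (13.8%), 0 at 30 min (4.44%) and 4 at 90 min (8.37%), with 0 after the first doubling (3.84%) and 0 after the second (5.08%). The 4 at midlog were RPL23B, RPL24B, RPL25 and RPL28 and the 4 at 90 min RPL10, RPL23B, RPL27A and RPL28, named after their values were seen. RPL28 had 0.0405 and 0.108 units in starved oeSir3, against 4.14 and 2.71 in wt1 and 8.46 and 4.35 in wt2 (-3.93 ± 0.55, adjusted p = 4.13e-08, relative to the median gene). RPL22A had 0.0187 and 0.00287 in starved oeSir3, against 2.13 and 0.755 in wt1 and 1.72 and 0.573 in wt2 (-3.26 ± 0.74, adjusted p = 0.000239). At midlog the same gene had 77.2 and 56.6 in oeSir3, against 53 and 74.8 in wt1 and 393 and 103 in wt2, where the groups overlap. RPL31A (-3.88 ± 0.76) and RPL26B (-3.87 ± 0.69) completed the 3 lowest in starvation; RPL1A (-0.51 ± 1.40) and RPL7B (0.51 ± 0.79) were among the highest. At 5 min RPL22A (-3.19 ± 0.74), RPL14A (-2.71 ± 0.93) and RPL29 (-2.69 ± 1.02) were lowest and RPL3 (-0.60 ± 0.39), RPL11A (-0.51 ± 1.03) and RPL4B (0.37 ± 0.75) highest. RPL22A had 0.332 and 0.591 in oeSir3 at 5 min, against 6.24 and 4.92 in wt1 and 8.57 and 9.81 in wt2. Many starved oeSir3 values lie near the pseudocount of 0.03, and 4 genes had a 0 in one of the 2 libraries. The median gene of these libraries is also low (log2 of -4.24 and -5.27 before the pseudocount). The pseudocount can therefore shift differences relative to that gene in either direction.

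The set supplied 0.112% and 0.152% of all summed coverage in the 2 starved oeSir3 libraries, against 1.08% to 2.70% in the 4 starved wild-type libraries, and its median lay below that of all genes only in starved oeSir3. Within oeSir3 all 43 genes fell in starvation (87% of all genes; median -9.59 on the spike-in scale, -5.04 relative to the median gene), 33 had risen at 5 min (12.1%; median 3.44) and all 43 at 30 min (65.1%; median 7.89). The difference of the oeSir3 changes from those of the wild types was tested directly, on values relative to the median gene and not on the spike-in scale. In starvation 7 genes fell more in oeSir3 (8.44% of all genes), with RPL26B at -2.50 ± 0.98 and RPL26A at -2.50 ± 0.67. By 30 min 14 rose more (7.74%), with RPL23B at 3.21 ± 0.88 and RPL26A at 3.00 ± 0.67. These tests, and that at 5 min, share the starved libraries, so the counts are not independent. At 5 min only RPL3 rose more (2.22 ± 0.55, adjusted p = 0.0125; 0.431%). The count of 7 was 1 without oeSir3 replicate 1 and 2 without oeSir3 replicate 2. It was 4 or 13 without replicate 1 of a wild type, depending on which of the wild types lost it. The count of 14 was 9 without wt1 replicate 1, 4 without oeSir3 replicate 1 and 9 without oeSir3 replicate 2. The 31 genes lower at 5 min were 18 without wt1 replicate 1, 17 without oeSir3 replicate 1 and 12 without oeSir3 replicate 2. No pair ratio of the set was called in oeSir3 (10% of the 40 pairs called; limma; 4 pairs of the set had an unadjusted p under 0.05), with RPL8 (0.91 ± 0.29, adjusted p = 0.0855) and RPL4 (-1.14 ± 0.50, adjusted p = 0.223) at the ends, and 1 passed without wt2 replicate 2.

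**Figure D4:**
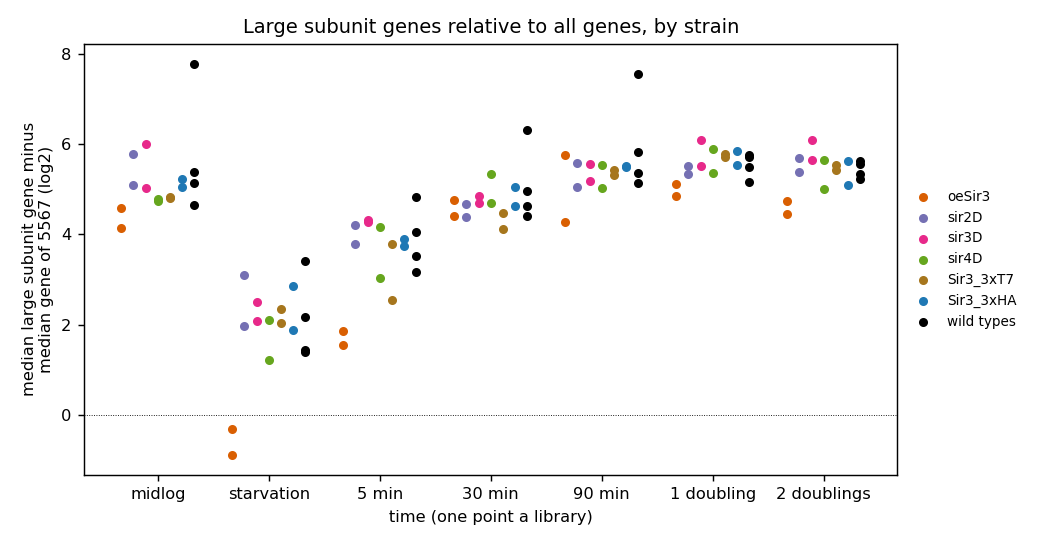
Median of the 43 genes minus the median of 5567 genes (log2, y axis) in each library by time (x axis), one colour a strain and one point a library, with oeSir3 at the left and the 4 wild-type libraries at the right of each time. The 2 starved oeSir3 libraries lie below 0 and the 2 oeSir3 libraries at 5 min below all others of that time.

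Replicates of one strain and time differed by gene. In the 6 strains whose replicate 1 has its own zero value and replicate 2 the shared one, 42 library pairs were compared relative to the median gene of the set. RPL33A differed by a mean of -2.44 log2 units, replicate 1 minus replicate 2 (SD 1.76; lower in 37 of 42 pairs), RPL1A by -2.0 (34 of 42), RPL9B by -1.46 (39 of 42), RPL1B by -1.15 (28 of 42) and RPL30 by -1.14 (32 of 42). RPL21A (by 1.11; 42 of 42 pairs) and RPL8B (by 1.03) were among those higher in replicate 1. RPL33A at 2 doublings had 8.64 and 79.6 in wt1 and 2.94 and 85 in wt2, so its 4 wild-type values split by replicate, and its SEs above were among the larger ones. The part of library preparation in this was not tested. In 35 genes this mean difference was within 1 log2 unit in either direction. Differences of opposite sign cancel in the mean, so single pairs could differ by more. RPL4A, for example, had a mean of 0.28 with an SD of 1.50.

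**Figure D5:**
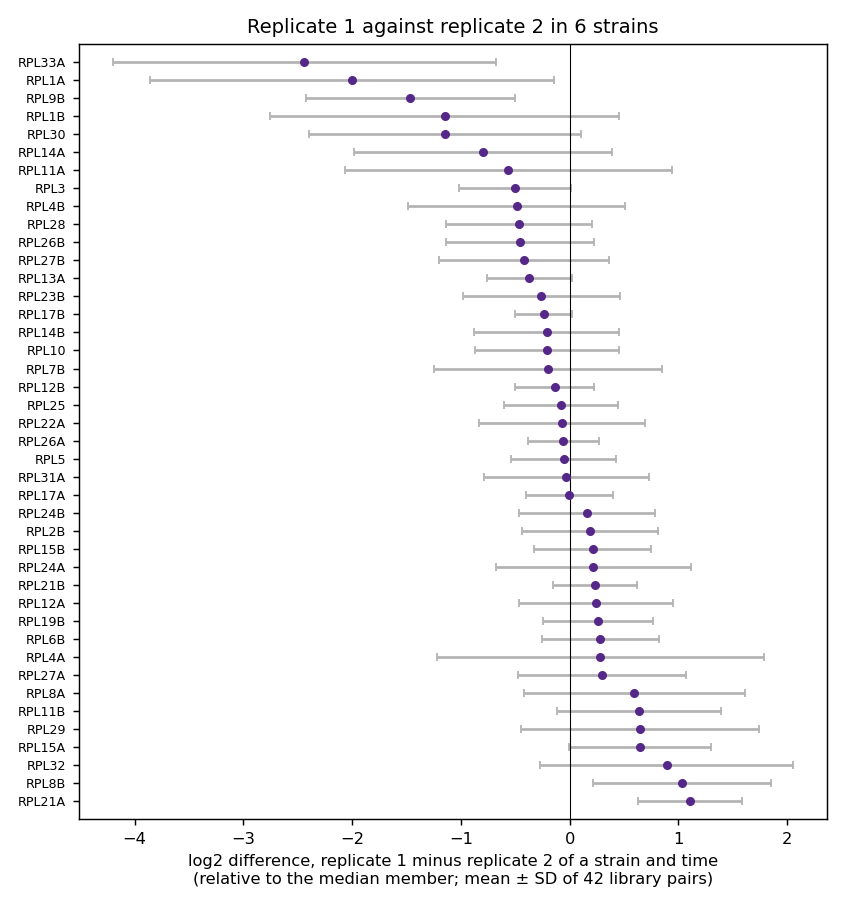
Mean difference ± SD over 42 library pairs, replicate 1 minus replicate 2 of the same strain and time, of each gene's log2 level relative to the median gene of the set (x axis), for 42 of the 43 genes (rows). RPL33A and RPL1A lie farthest left and RPL21A farthest right of those plotted.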

How the data were processed

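Poly(A) RNA of 8 strains at 7 times was analysed as 56 groups of 2 libraries, grouped by the labels. Each value is the log2 of the median read coverage over a coding sequence on the scale of the S. pombe spike-in (per the file headers), and 1 table for the whole series was deposited by the authors. CASAVA 1.7.0 is named in the submitters' processing notes; an aligner and a build for S. cerevisiae are not given in the sources read. Chromosome numbers and positions deposited by the authors were not used for results.

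Values were returned to the linear scale, and the value standing for zero coverage in each library was set to 0. Linear values fell on whole or mid-way steps of 1 read per library, within a tolerance of 0.02 of a step, which gave the reads behind the median gene; since each value is a median over positions and not a read count, no count test was run. Genes above 0.15 in at least 4 libraries (5567) were tested with limma 3.58.1 in R 4.3.3 on log2(value + 0.03). Folds of low genes on the spike-in scale are therefore understated. Relative to the median gene they can shift in either direction where that gene is low too. Time comparisons were fitted over single libraries (56 residual degrees of freedom). Strains were compared on the mean over the times of each of 16 series, each library centred on its median gene, with 8. Calls needed a Benjamini-Hochberg adjusted p under 0.05 and at least 1 log2 unit; paralogue ratios needed the adjusted p alone, over 40 pairs. The fits were checked on simulated data with independent noise for each library or series mean. That check does not cover deviations shared by the libraries of a replicate series. Counting error and floors cover reads only.

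Alternatives changed the pseudocount, the low-value filter, the zero value, the scaling, low-depth libraries, single replicates and a replicate block; a term for the kind of zero value and tests of oeSir3 alone were chosen after seeing the data. The rule for the members uses no measured value, but it, the lists and the tests were chosen with earlier results of these data known. Named genes are the 3 highest and 3 lowest of each comparison, genes without a paralogue in starvation, called pairs, RPL22A and RPL22B, and the 5 highest and lowest at midlog; others are said to be chosen later, and 1 gene is not reported by name here. Sequences and motifs come from RefSeq R64 with Python 3.11.15 and Biopython 1.88. RPL9A and RPL16A were not analysed here.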

Additional observations from a re-analysis of the deposited data

Results flagged for a closer look

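In 12 of 133 sets of 4 wild-type values that were checked, 1 library stood apart from the other 3 (Dixon's test at the 95% level; chance alone gives about 1 in 20). The library of wt1 replicate 1 was the one apart in 9 of them. It was low at 90 min for RPL3 (41.0, against 77.6 to 81.3 units in the other 3), RPL10 (88.8, against 216 to 255) and RPL28 (75.5, against 226 to 240.0), at 30 min for RPL26A (7.28, against 18.5 to 21.0) and RPL23B (21.0, against 85.0 to 102), and at 2 doublings for RPL22A (40.6, against 78.2 to 87.9). It was high for RPL8A in starvation (0.364, against 0.122 to 0.142) and at 1 doubling (13.4, against 6.21 to 7.05), and for RPL4A at 1 doubling (108, against 33.2 to 34.9). The library of wt2 replicate 1 was low for RPL25 at 1 doubling (67.4, against 121 to 128) and, at 2 doublings, for RPL10 (132, against 176 to 186) and RPL28 (56.6, against 157 to 173); at 2 doublings it was one of the libraries under 10 reads over the median gene.

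The change of the genes over time, relative to the median gene, differed between oeSir3 and the wild types by a direct test in limma with adjusted p under 0.05. In oeSir3 7 fell more in starvation, 1 rose more by 5 min and 14 rose more by 30 min. These tests share the starved libraries.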

How the results depend on the processing

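Signs were followed for the named genes in the wild-type time comparisons and the strain means, and for the called pair ratios. None of these that was called changed sign under any alternative. Other results were followed only as counts. The wild-type counts in starvation and at 90 min were 43 of 43 under every alternative on the spike-in scale, and the counts at 30 min and after the first and second doubling were 40 to 43 with 1 replicate left out. With 1 replicate left out in turn, the wild-type count at 5 min ran between 8 and 28, and oeSir3 gave 0 to 31 over the mean of times, 12 to 33 at 5 min, 39 to 136 over all gene and time tests, 1 to 13 for the starvation change and 4 to 18 for the 30 min change. In the same runs the gene and time tests gave 0 to 11 calls in sir2D, 0 to 9 in sir3D, 0 to 28 in sir4D, 0 to 14 in Sir3_3xT7 and 0 to 9 in Sir3_3xHA, sir4D gave 0 to 1 over the mean of times, and the pair ratios gave 0 to 3 after 2 doublings and 0 to 1 in oeSir3; in each case the highest number came without wt2 replicate 2. A pseudocount of 0.3 gave 0 for the oeSir3 starvation change, 1 for its 30 min change, 5 pair ratios in starvation, 1 after 2 doublings and 1 sir3D gene and time call; 0.003 gave 13 for the oeSir3 starvation change. Keeping the deposited zero value gave 16 for the oeSir3 starvation change and 25 for its 30 min change. Leaving out libraries under 10 reads gave 13 for the oeSir3 starvation change and 7 for oeSir3 over the mean of times. The deposited spike-in scale gave 1 sir3D gene and time call. The cause of these shifts was not tested.

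Replicate deviations at different times of a strain correlated above 0.1 in 21 of 21 pairs of times in 5 strains, in 20 in oeSir3, 16 in wt2 and 12 in sir4D, so in most strains libraries of one replicate series deviated together; not every correlation passed 0.1, and the reported fits have no block. With the replicate number as a block, oeSir3 gave 28 calls over the mean of times, 120 over all gene and time tests, 17 for the starvation change and 27 for the 30 min change, sir3D gave 4 and sir4D 10 gene and time calls, and 1 pair ratio was called after 2 doublings and 1 in oeSir3. Depth limits mainly the starved oeSir3 libraries.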
